A study of Mus musculus with 2 samples.

Results

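The subject is 10 imprinted genes, genes read mainly from the copy of a single parent, which were described in gastrocnemius, a calf muscle of the mouse. The 10 were chosen by name as growth genes and noncoding RNAs of imprinted loci: H19, Igf2, Meg3, Rian, Mirg, Dlk1, Peg3, Cdkn1c, Grb10 and Mest, out of 15622 annotated genes with reads in either library. The tissue came from male B6CASTF1/J mice aged 25 days, F1 offspring of C57BL/6J crossed with CAST/EiJ, and the series holds 1 group with 2 replicates that carry no treatment. The labels name a separate animal for each replicate while pointing to the same donor record. The tests therefore compare 2 libraries only, and p-values of Fisher's exact test cover counting error, not the spread between animals. RNA was sequenced in long reads and each read was assigned to a transcript model. Annotated genes received 1215785 reads in replicate 1, against 1549606 in replicate 2. The deposited counts do not separate the alleles of the 2 parents, so each value is the sum over both copies.

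Imprinting marks a gene by DNA methylation laid down in the egg or the sperm, and many imprinted genes set fetal growth. Paternally read members such as Igf2, Dlk1, Peg3 and Mest are known mostly as promoters of growth or of progenitor states, whereas the maternally read H19, Cdkn1c and Grb10 restrain growth. H19 and Igf2 share enhancers and a control region, and Dlk1 and the noncoding RNAs Meg3, Rian and Mirg lie side by side at another imprinted locus. Several of the noncoding RNAs and Mest carry microRNA hairpins, and H19 is known to be switched off in most tissues after birth but to stay on in skeletal muscle.

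MicroRNA hairpins lie in 6 of the 10 genes by the RefSeq table used here, and the reads placed them in different parts of their hosts, so the mature sequences are given of the hosts whose reads span the hairpin in both libraries, 5′ to 3′. Capitals mark the seed, bases 2 to 8, with which a microRNA pairs to its targets. The sequences are those of RefSeq on GRCm38.p6. The miR-675 arms lie in H19 on the minus strand (chr7:142577112-142577133 for 5p, chr7:142577078-142577099 for 3p). The miR-770 arms lie in Meg3 on the plus strand (chr12:109563710-109563731 and chr12:109563744-109563765), and the miR-335 arms in Mest, also on the plus strand (chr6:30741314-30741336 and chr6:30741354-30741375). No seed is shared between these 6 sequences.
mmu-miR-675-5p: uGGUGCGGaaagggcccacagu
mmu-miR-675-3p: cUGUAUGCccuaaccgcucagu
mmu-miR-770-5p: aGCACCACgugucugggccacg
mmu-miR-770-3p: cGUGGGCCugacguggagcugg
mmu-miR-335-5p: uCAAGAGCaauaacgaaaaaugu
mmu-miR-335-3p: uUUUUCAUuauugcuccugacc

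H19 and Cdkn1c held nearly all reads of the group. Levels are given in CPM, the reads of a gene scaled to 1000000 gene-assigned reads per library; a long read counts 1 cDNA whatever its length, so levels were not divided by length. Summed over the 10 genes, replicate 1 had 753 CPM from 915 reads and replicate 2 had 690 CPM from 1070 reads, a mean of 722 ± 43.9 CPM (SD, n = 2). H19 alone made up 69.2% of these reads in replicate 1 and 78.4% in replicate 2, and H19 with Cdkn1c 93.9% and 91.0% in the same order of libraries. The other 8 genes shared 56 reads in replicate 1 and 96 in replicate 2.

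H19, a long noncoding RNA (chr7:142575529-142578143, minus strand), stood at 521 CPM in replicate 1 (633 reads) and 541 CPM in replicate 2 (839 reads), with overlapping 95% Poisson intervals. It ranked 158th and 205th among all genes. Cdkn1c, an inhibitor of cyclin-dependent kinases that halts the cell cycle (chr7:143458339-143461050, minus strand), followed with 186 CPM in replicate 1 (interval 162 to 212) and 87.1 CPM in replicate 2 (73.0 to 103). The intervals of Cdkn1c did not overlap between the libraries, and in each library they lay below that of H19 and above those of the other members.

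Igf2, Meg3 and Mest had the next highest mean levels, near 10 CPM. Igf2, the insulin-like growth factor whose locus neighbours H19 (chr7:142650766-142666816, minus strand), had 13.2 CPM in replicate 1 and 14.2 CPM in replicate 2, from 16 and 22 reads. Meg3, a maternally read long noncoding RNA (chr12:109541001-109571726, plus strand), had 8.23 and 17.4 CPM from 10 and 27 reads. Mest, a protein with the fold of a hydrolase enzyme (chr6:30723547-30748465, plus strand), had 13 reads in each library, 10.7 CPM in replicate 1 and 8.39 CPM in replicate 2. The Poisson intervals of these 3 genes overlapped in both libraries, so their order cannot be given. They also overlapped those of scarcer members. Igf2 and Mest overlapped with Grb10 and Dlk1 in both libraries and with Rian in replicate 2. Meg3 overlapped with Grb10, Dlk1 and Rian in replicate 1. Peg3 overlapped with all 3 in replicate 2, and with Meg3 and Mest in replicate 1. H19 had 39.6 reads for each Igf2 read in replicate 1 and 38.1 in replicate 2.

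The remaining genes rested on 16 reads or fewer over both libraries. Grb10, an adaptor that binds the insulin and IGF1 receptors and damps their signal (chr11:11930508-12038683, minus strand), had 7.40 CPM in replicate 1 and 4.52 CPM in replicate 2, from 9 and 7 reads. Peg3, a zinc finger protein (chr7:6703892-6730431, minus strand), had 1.65 CPM from 2 reads and 7.74 CPM from 12 reads. Dlk1, a membrane protein with EGF-like repeats related to Notch ligands (chr12:109452823-109463336, plus strand), had 4.11 and 4.52 CPM from 5 and 7 reads. Rian, a noncoding RNA that hosts small nucleolar RNAs and microRNAs (chr12:109603940-109661716, plus strand), had 0.823 CPM from 1 read and 5.16 CPM from 8 reads.
Mirg, a microRNA host at the same locus (chr12:109729764-109749460, plus strand), had 0 reads in both libraries. A count of 0 sets its level at 2.47 CPM or less in replicate 1, and in replicate 2 at 1.94 CPM or less. The intervals of Grb10, Peg3, Dlk1 and Rian overlapped within each library, and none of their levels could be ordered. These limits, like all intervals and tests on reads here, cover counting error only, since reads of an amplified library are not independent molecules.

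**Figure D1:**
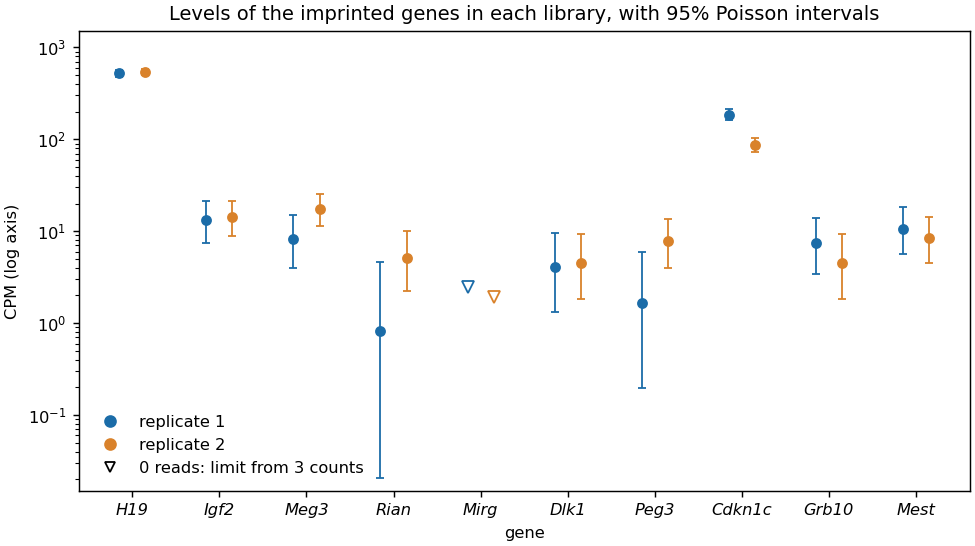
Level of each of the 10 genes in CPM on a log axis, with 95% Poisson intervals, for replicate 1 and replicate 2. H19 lies above 500 CPM and Cdkn1c at 186 and 87.1 CPM, the others lie under 20 CPM, and the open triangles for Mirg give the limit that 0 reads allow.

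The nearest genes in level were sought for H19 and Cdkn1c, the members with 100 or more reads over both libraries. All annotated genes with reads were searched, by the distance between log2 levels (CPM + 1) over the 2 libraries. Among the genes close to H19 were Eif5a, a translation factor with 475 CPM in replicate 1 and 529 CPM in replicate 2, at a distance of 0.14, and Mdh1, cytosolic malate dehydrogenase, at 0.21. Cdkn1c lay closest to Tob1, an antiproliferative protein, with 192 and 86.5 CPM at a distance of 0.05, followed by Eif4g1, a scaffold of translation initiation, and Usp13, a ubiquitin protease, both at 0.06. With 2 libraries such likeness says only that the levels were close.

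Of the genes that could be compared between the libraries, Cdkn1c was the sole one to differ past the threshold. A two-sided Fisher exact test on reads was fitted over all 8692 genes with 10 or more reads, adjusted by the Benjamini-Hochberg method over all of them, with a threshold of 0.05; it compares these 2 libraries, not conditions. It called 43.3% of all genes tested, and 1 of the 8 members tested. Rian and Mirg had too few reads to enter. The log2 ratio of replicate 1 over replicate 2 (CPM + 1) was 1.08 ± 0.16 (counting SE) for Cdkn1c, with an adjusted p of 1.81e-11. The median over all genes tested was 0.27. With an assumed coefficient of variation between animals of 0.2 or 0.4, edgeR's exact test gave Cdkn1c adjusted p-values of 0.0725 and 0.690. It called none of the 8 members at either value, and 15.5% and 0.092% of all genes tested. Of the members, 2 and 0 had an unadjusted p under 0.05. The common coefficient that edgeR estimated from these libraries was 0.512.

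The libraries stood apart in makeup, and the values are set beside Cdkn1c because they moved in the same comparison. The 5 fibroblast markers, all detected in both, summed to 4567 CPM in replicate 1, against 900 CPM in replicate 2, led by the collagen gene Col1a1 with 2448 and 279 CPM. Pdgfra of the same list had 4.11 and 4.52 CPM. The 4 endothelial markers summed to 43.6 and 20.7 CPM, the 4 Schwann cell markers to 146 and 500 CPM, and the 6 satellite cell markers to 57.6 and 47.8 CPM. Within the satellite cell list Chodl had 27.1 and 12.9 CPM, while Sdc4 had 3.29 and 12.3 CPM. Myf5 of the satellite cell list had 0 reads in replicate 1, and Lep of the 4 adipocyte markers, which summed to 18.9 and 18.1 CPM, had 0 reads in both. The 4 muscle fibre markers summed to 187946 and 195052 CPM, so the markers of the labelled tissue were abundant in both. That sum hides opposite differences: Myh4 had 23867 and 9831 CPM, and Tnnc2 24025 and 49836 CPM. Acta1 had 71337 and 65981 CPM, and Ckm 68718 and 69403 CPM. The part of these makeup differences in the Cdkn1c result was not tested, and in bulk tissue fewer cells of a type and less RNA per cell cannot be told apart.

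H19 did not pass the threshold at a log2 ratio of -0.06 ± 0.08 (adjusted p = 0.594), but its call depended on the scaling and on the classes counted. TMM and DESeq2 scaling moved the median of all genes by -0.25 and -0.28, and under them the log2 ratio of H19 was -0.35 (adjusted p = 2.64e-05) and -0.37 (adjusted p = 5.47e-06), lower in replicate 1. Counted over annotated transcripts alone it was 0.23 (adjusted p = 0.0131), where the median of all genes was 0.58. Relative to the median of all genes tested H19 was lower in replicate 1 in each of these fits, at -0.33 in the test above, -0.37 with TMM and with DESeq2 scaling and -0.35 over annotated transcripts; the sign of its own ratio depends on the scaling and classes.
Meg3 had a log2 ratio of -0.998 ± 0.484 and an adjusted p of 0.0940, which became 0.0229 with TMM and 0.0221 with DESeq2 scaling. Without incomplete and genomic reads its level was 3.72 CPM in replicate 1 and 2.50 CPM in replicate 2. These levels rest on 4 reads of unannotated chains in replicate 1, and in replicate 2 on 2 such reads and 1 of an annotated transcript. No direction can be given from so few reads. Peg3 had -1.72 ± 0.73 and 0.0649, which became 0.0343 and 0.0340. All 12 of its reads in replicate 2 lay on a genomic model listed with a length of 1 bp, at the annotated 3′ end of the gene, and without genomic reads its level was 0 in both libraries. Igf2, Dlk1, Grb10 and Mest had log2 ratios between -0.11 and 0.61 and adjusted p-values of 0.460 or more, also by Fisher's exact test.

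**Figure D2:**
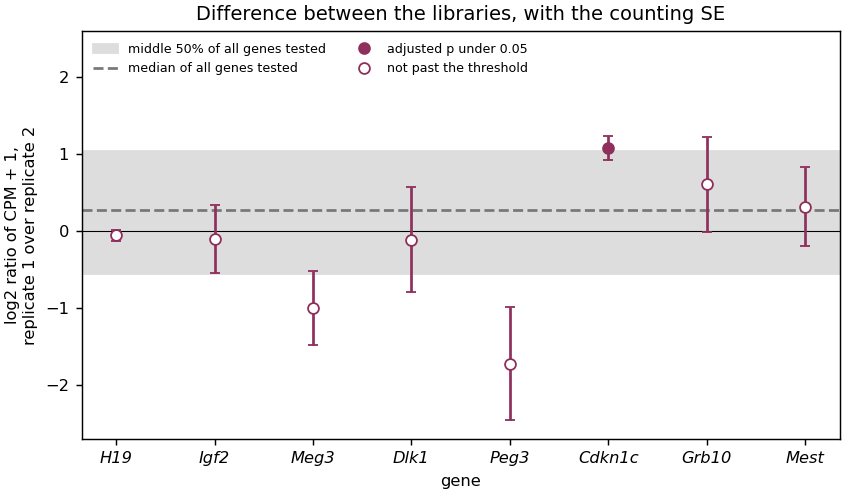
Log2 ratio of CPM + 1, replicate 1 over replicate 2, for the 8 genes tested, with the counting SE; the grey band spans the 25th to 75th percentile of all 8692 genes and the dashed line is their median, 0.27. Cdkn1c at 1.08 is the filled point past the threshold, Meg3 and Peg3 lie below the band, and H19 lies close to 0.

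The reads of the 10 genes differed in how much of a transcript they covered. Each model carries a class: annotated transcript, known sites in a new combination, new splice site, incomplete splice match (part of an annotated chain) or genomic (unspliced or partly spliced). Incomplete and genomic reads together made up 8.85% of the reads of the 10 genes in replicate 1 and 23.2% in replicate 2, beside 11.6% and 22.5% of all reads in annotated genes. For H19 they were 7.42% in replicate 1 (95% Clopper-Pearson interval 5.51 to 9.75) and 19.4% in replicate 2 (16.8 to 22.3), and for Cdkn1c 2.65% and 3.70%. The H19 intervals did not overlap, whereas those of Cdkn1c did. All 9 reads of Rian and all 14 of Peg3 were unspliced genomic reads, so no read of these 2 genes held a splice junction. All 14 Peg3 reads and the 8 Rian reads of replicate 2 lay within an annotated last exon. There a read holds no junction, so whether their molecules were spliced is not known. The 1 Rian read of replicate 1 overlapped no annotated exon of the gene. Like Rian and Peg3, Igf2 had 0 reads on an annotated transcript in both libraries.

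**Figure D3:**
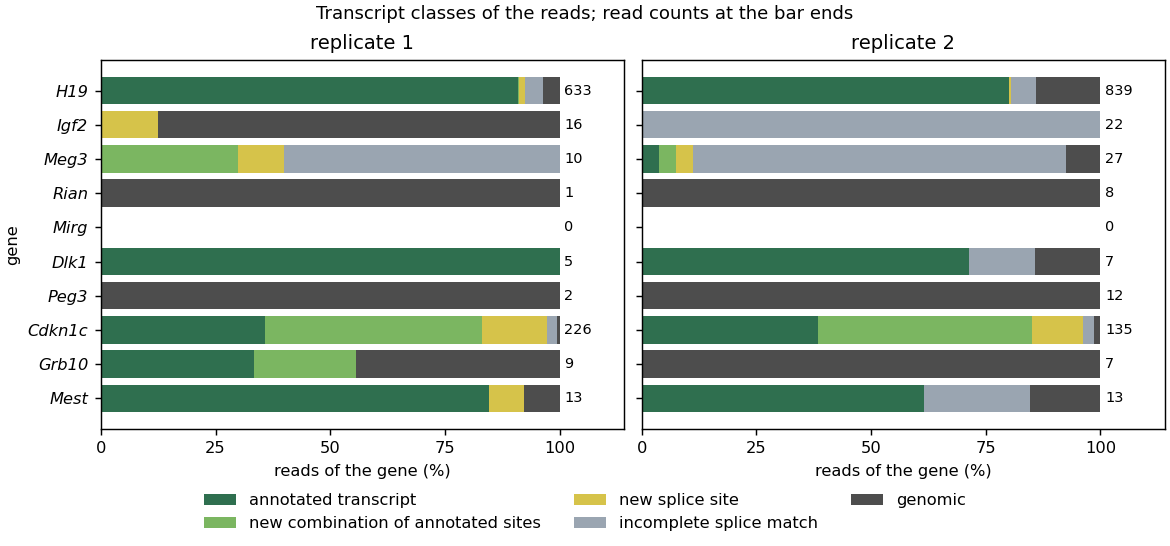
Share of each gene's reads in each transcript class, replicate 1 at left and replicate 2 at right, with the number of reads at the end of each bar. Annotated H19 transcripts hold 91.0% of its reads in replicate 1 and 80.1% in replicate 2, Cdkn1c shows the most reads in the classes of new combinations and new splice sites, and Rian and Peg3 consist of genomic reads.

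H19 was read almost wholly as its 5-exon transcript H19-202. That transcript held 559 reads in replicate 1 and 646 in replicate 2, which was 95.4% and 95.6% once incomplete and genomic reads were set aside. By the Fisher exact test over all 3036 genes with 20 or more such reads in each library, of which 2.08% were called, neither H19 nor Cdkn1c was called (both adjusted p = 1). Over reads of all classes the share of H19-202 was 88.3% in replicate 1 and 77.0% in replicate 2, a difference of 11.3 percentage points (adjusted p = 1.72e-07 by the same exact test). The difference sat in short models: unspliced reads at the 3′ end of the last exon numbered 19 in replicate 1 and 96 in replicate 2, in models of 104 and 106 bp. The main start of H19, between 142578095 and 142578143, was the listed start of 88.3% of reads in replicate 1 and 77.1% in replicate 2. The intervals did not overlap (85.5 to 90.7 and 74.1 to 79.9). The short unspliced models count here as other starts, and over annotated transcripts alone the shares were 97.0% and 96.1%.

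The 4 introns of H19-202 were spliced in most reads that span them. From the last intron of the transcript to the first, the shares were 99.5%, 98.4%, 99.8% and 95.0% in replicate 1 and 99.6%, 97.7%, 99.4% and 92.7% in replicate 2. By the listed models the first intron was the least often spliced in both libraries. A model with 15 reads in replicate 1 and 34 in replicate 2 is listed as keeping it. That model, an incomplete splice match, is listed from 142576910, the annotated start of H19-201. Listed ends follow the annotation, so whether its reads cover the first intron is not known. A further 11 and 14 reads spliced the first intron to a start 4 bases further into exon 2, the annotated choice of H19-205. They are 1.84% and 2.00% of spanning reads. The 20 bases at the start of exon 2 are given from GENCODE M21 on mm10 (chr7:142576728-142576747, minus strand), with capitals on the 4 bases that this choice leaves out.
H19 exon 2 start: CCAGgtctccagcagaggtg
Of 19 spliced chains of H19 in all, 6 occurred in both libraries, and these held 98.5% of spliced H19 reads in replicate 1 and 99.3% in replicate 2.

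The miR-675 hairpin lay in an exon of most H19 reads. It spans bases 997 to 1080 of H19-202, inside its 1315-base exon 1 (chr7:142577064-142577147). Of 633 reads in replicate 1, 577 kept the hairpin in an exon (91.2%, interval 88.7 to 93.2), and of 839 reads in replicate 2, 663 did (79.0%, 76.1 to 81.7). The hairpin lay in a spliced-out stretch in 3 and 2 reads. In replicate 2, 19 unspliced reads formed a model of 267 bp that ended on the first base of the hairpin, 142577147, and in replicate 1 a like model of 184 bp with 3 reads ended at 142577240. Ends are a weak guide here: of the 188 ends of the 94 unannotated models of the 10 genes, 174 fell on the edge of an annotated exon, so the listed ends follow the annotation and where reads ended is not known.

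**Figure D4:**
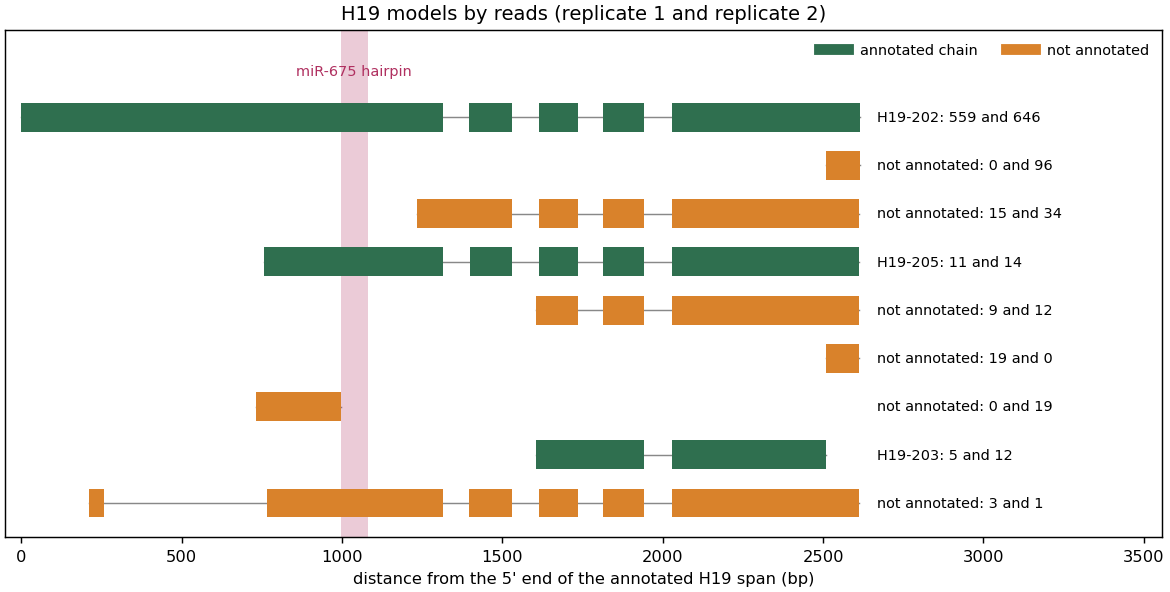
The 9 H19 models with most reads, drawn to scale from the 5′ end of the annotated span, with the reads of replicate 1 and then replicate 2 beside each; filled boxes are exons, green for annotated chains and orange for the others. H19-202 leads with 559 and 646 reads and its long exon 1 holds the miR-675 hairpin, shaded, while the short models at the 3′ end hold 19 and 96 reads.

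In Mest and Meg3 the hairpins lay in introns. Mest reads came from a single start, 30738050, for 12 of 13 reads in replicate 1 and 8 of 13 in replicate 2, and none began at an annotated start upstream of it. The 12-exon transcript Mest-211, which codes for 335 residues, held 11 and 8 of them. All 12 and 8 reads that span the miR-335 hairpin had spliced it out with the second intron.
Meg3 had 4 spliced reads in replicate 1 and 5 in replicate 2, and in 4 of them in each library the miR-770 hairpin lay in a spliced intron. In 3 of these 4 reads in each library that intron joined an exon of 184 bases (chr12:109568411-109568594) whose edges are not in the M21 models of Meg3. Only 1 of the 8 spliced Meg3 chains occurred in both libraries. The larger part of Meg3 reads, 6 of 10 in replicate 1 and 20 of 27 in replicate 2, covered only the last exon.

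Igf2 was read almost only from its 3′ end. In replicate 1, 14 of 16 reads were unspliced within the last exon, and in replicate 2 all 22 were. A spliced chain of 7 exons that began at 142659489 was seen in 1 read of replicate 1, and that read had spliced out the miR-483 hairpin. Promoter use of Igf2 therefore could not be read at this depth.
Grb10 had 5 spliced reads in replicate 1, all from the start at 12037401, of which 3 were the 17-exon Grb10-201 that codes for 596 residues. In replicate 2 all 7 Grb10 reads lay unspliced in the last exon, and models antisense to Grb10 had 1 read in replicate 1 and 24 in replicate 2. Dlk1 is known as a full-length form that can be shed from the membrane and shorter forms that lack part of exon 5. Its full exon 5 (Dlk1-205, 385 codons) was kept by 3 reads in replicate 1 and 4 in replicate 2. In each library 2 reads had lost 219 or 225 bases of it, which leaves 312 or 310 codons. With 12 reads in all no ratio of the forms is given.
Rian carries 3 hairpins and Mirg 14 in the table, and no read covered any of them.

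Cdkn1c reads were listed in more spliced chains than its annotation holds, and the same choices recurred in both libraries. Annotated transcripts held 35.8% of its reads in replicate 1 and 38.5% in replicate 2. New chains held 61.5% (interval 54.8 to 67.9) and 57.8% (49.0 to 66.2), beside 22.6% and 6.91% of all reads in annotated genes. Of 29 spliced chains, 16 occurred in both libraries and held 93.3% of spliced Cdkn1c reads in replicate 1 and 92.5% in replicate 2. The most read annotated transcript, Cdkn1c-201, had 53 and 35 reads, and an unannotated chain had as many, 53 and 34. The classes are assigned per library and did not always match: 4 of the 13 new chains found in both carried different classes in them, and chains with sites outside M21 appear in both classes, so the 2 classes are summed here as new chains. That leading chain joined annotated edges only, in a combination M21 does not list.

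The new chains came mostly from the ends of exon 2, which holds most of the coding sequence. Of the reads spliced at both ends of exon 2 (207 in replicate 1 and 122 in replicate 2), exon 2 began at 143460678 in 60.4% and 67.2%, the start of Cdkn1c-201. It began 3 bases later, at 143460675, in 25.6% (interval 19.8 to 32.1) and 18.9% (12.3 to 26.9), a site M21 does not hold. The longest form, from 143460716, was used by 14.0% and 13.9%. Intervals of each choice overlapped between the libraries. The CAST/EiJ copy was not compared, so whether the start 3 bases later is a separate splice site was not tested.
The sequence around these starts is given from GENCODE M21 on mm10, minus strand (chr7:143460661-143460690), with capitals on the consecutive CAG triplets. Exon 2 began after the first CAG in the commonest form and after the second in the form 3 bases shorter, and both lie before the start codon of Cdkn1c-201.
Cdkn1c exon 2 starts: gtacctccgCAGCAGaacagcgatggaacg
The longest form adds a start codon in the same frame, 13 codons upstream, from which Cdkn1c-202 is annotated to be read (348 codons, against 335 in Cdkn1c-201). It is marked in capitals in the first 27 bases of that form (chr7:143460690-143460716, minus strand).
Cdkn1c upstream start codon: ccttcgaccATGggcatgtccgacgtg

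At its other end exon 2 had 2 annotated edges, used about equally. The longer form, to 143459759, took 51.8% of 222 reads in replicate 1 (interval 45.0 to 58.5) and 46.0% of 126 reads in replicate 2 (37.1 to 55.1), and the shorter one, to 143459795, took 48.2% and 54.0%. The forms differ by 36 bases, or 12 codons, shown in capitals after the last 12 bases of the shorter form (GENCODE M21, mm10, chr7:143459759-143459806, minus strand).
Cdkn1c exon 2 end: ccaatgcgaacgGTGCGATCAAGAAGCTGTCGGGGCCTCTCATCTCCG
Among reads with the commonest start, the longer end was used in 64 of 125 in replicate 1 and 41 of 82 in replicate 2, and among those with the start 3 bases later in 30 of 53 and 10 of 23. With the longest start it was 11 of 29 and 7 of 17, and the intervals of these shares all overlapped. Start, end and inner intron together occurred in 24 combinations.

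A smaller set of reads lacked a stretch inside exon 2. Any such inner gap was present in 13.5% of 207 reads in replicate 1 and 12.3% of 122 reads in replicate 2, with overlapping intervals. The commoner gap, of 84 bases or 28 codons, was in 15 and 7 of these reads, and the other, of 59 bases and so not a whole number of codons, was in 13 and 6. M21 holds neither. Both gaps begin with GT and end with AG, the letters of most introns, and both are shown in capitals with 12 bases on either side from GENCODE M21 on mm10, minus strand (chr7:143460015-143460122 and chr7:143460003-143460085).
Cdkn1c gap of 84 bases: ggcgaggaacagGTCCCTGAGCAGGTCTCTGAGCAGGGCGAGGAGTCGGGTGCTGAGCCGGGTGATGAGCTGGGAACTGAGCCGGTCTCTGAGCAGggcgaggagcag
Cdkn1c gap of 59 bases: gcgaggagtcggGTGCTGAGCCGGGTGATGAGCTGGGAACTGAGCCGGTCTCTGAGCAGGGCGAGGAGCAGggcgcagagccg
The stretch repeats short GAGCAG and GAGCCG units, and the last 3 bases of the 84-base gap equal the 3 bases before it, so its join could be placed 3 bases earlier with the same read sequence. Read sequences are not in the files and the CAST/EiJ copy of the exon was not compared, so whether these gaps are introns was not tested.

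**Figure D5:**
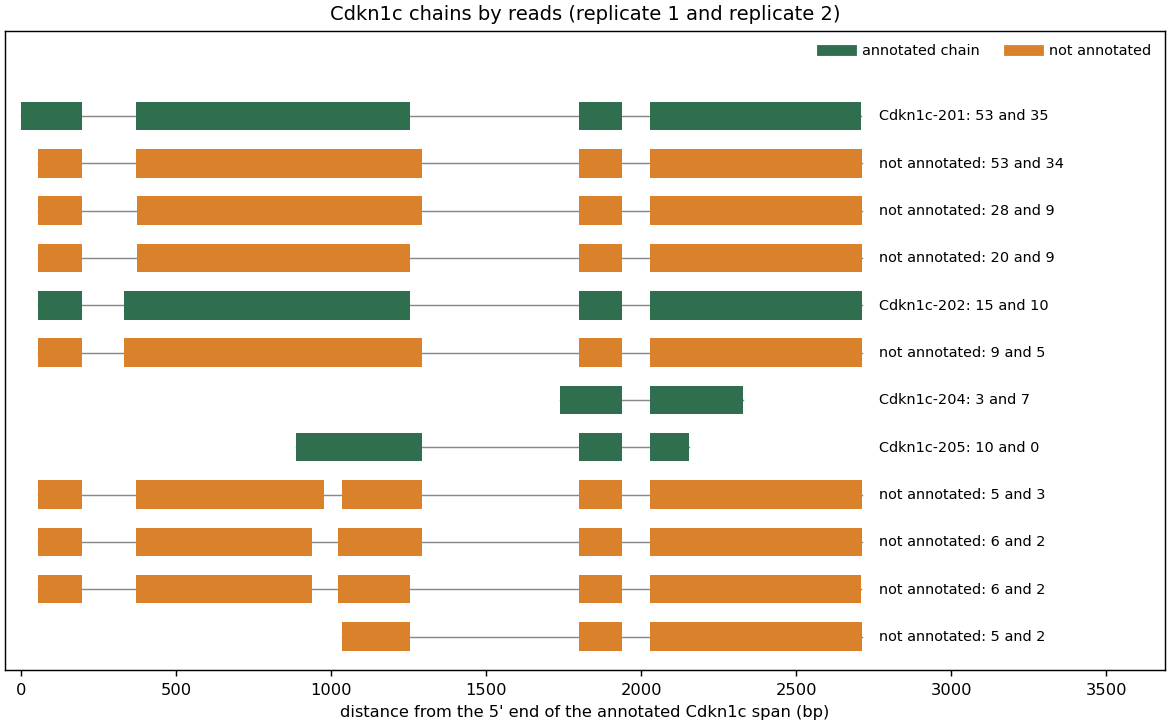
The 12 Cdkn1c chains with most reads, drawn to scale from the 5′ end of the annotated span, with the reads of replicate 1 and then replicate 2 beside each; green boxes are exons of annotated chains and orange boxes those of unannotated ones. The chains differ by the start, the end and the inner gaps of exon 2, and Cdkn1c-201 and the leading unannotated chain have 53 reads each in replicate 1.

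Among other genes listed as imprinted, a few were abundant and many scarce. Alleles are not separated here, so whether each is imprinted in this muscle was not tested. Of 43 further imprinted genes, 29 had reads, 22 of them in both libraries. The most abundant were Gnas, which codes for the stimulatory G protein subunit, with 906 CPM in replicate 1 and 840 CPM in replicate 2, and the tetraspanin Cd81 with 279 and 399 CPM. The proteoglycan Dcn had 280 and 184 CPM, the amino acid transporter Slc38a4 128 and 112 CPM, the histone chaperone Nap1l4 127 and 77.4 CPM, and the splicing protein Snrpn 65.8 and 86.5 CPM. Dcn is also on the fibroblast list.
By the Fisher exact test over all genes, 8 of the 19 tested differed between the libraries (42.1%, near the 43.3% of all genes), 7 higher and 1 lower in replicate 1, with a median log2 ratio of 0.41. Under TMM scaling 4 were higher and 4 lower, and under DESeq2 scaling 3 and 4. The largest was Trappc9, a subunit of a vesicle tethering complex, with 46.1 and 9.03 CPM (log2 2.23, adjusted p = 1.31e-08 by Fisher's exact test). Asb4, an ankyrin repeat protein, had 16.5 and 3.23 CPM. Nap1l4, Dcn, Ube3a, Blcap and H13 were also higher, with log2 ratios between 0.55 and 1.03, and Cd81 was lower at -0.52.

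Genes of the pathways in which the members act were taken from lists. Of 17 genes of IGF and insulin signalling, 12 were tested and 8 differed between the libraries, 7 higher and 1 lower in replicate 1, with a median log2 ratio of 0.85, beside 43.3% called and a median of 0.27 over all genes tested. Under TMM and DESeq2 scaling 6 were higher and 1 lower, where 40.9% and 40.7% of all genes were called. Igfbp5, an IGF binding protein, had 184 CPM in replicate 1 and 46.5 CPM in replicate 2, and Irs1, which docks onto the activated receptors, 45.2 and 11.6 CPM. Igf2bp3, an RNA-binding protein named for its binding of Igf2 mRNA, was the lower one with 1.65 and 10.3 CPM. Igf1, the other ligand, had 11.5 and 9.03 CPM, close to Igf2, and its receptor Igf1r 3 reads in each library.
Of 6 further cyclin-dependent kinase inhibitors, Cdkn1a was the only one to differ among 3 tested, with 23.0 CPM in replicate 1 and 10.3 CPM in replicate 2 (log2 1.09, adjusted p = 0.0251 by Fisher's exact test), and under TMM and DESeq2 scaling none did. A count of 1 in 3 lies near the 43.3% called among all genes. Cdkn1c had more reads than all 6 together, which summed to 47.7 and 41.3 CPM. Of 8 genes of Notch signalling, to which Dlk1 is related, 3 were tested and none was called by Fisher's exact test, nor under TMM or DESeq2 scaling, with none at an unadjusted p under 0.05. They were Notch4, Jag1 and Hes1, with levels between 3.87 and 9.87 CPM.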

How the data were processed

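Gastrocnemius RNA of 2 libraries was sequenced in long reads. The whole read counts per transcript model were deposited by the authors, unnormalised, and per the file headers models were made by TALON on mm10 with GENCODE M21; the aligner and any use of strand were not stated in the sources used here. Each library was processed separately, so unannotated models were matched by exact intron chain.

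Counts were summed per annotated gene over all classes, with spike-ins and antisense or intergenic models left out. Library depth was 1292409 reads in replicate 1 and 1703457 in replicate 2. Genes with a total of 10 reads or more were tested by Fisher's exact test with Benjamini-Hochberg adjustment (scipy 1.17.1, statsmodels 0.14.6); a pseudocount of 1 CPM was used for ratios, whose counting SE comes from the reads. Starts within 100 bp were joined. Intervals are exact 95% Poisson or Clopper-Pearson intervals, and a limit for 0 rests on 3 counts. Scaling and fixed coefficients of variation used edgeR 4.0.16 and DESeq2 1.42.0. The script was tested on simulated data.

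All 10 members are named, with models of 2 or more reads, and of the other imprinted genes the 6 most abundant and each past the threshold; pathway genes named in the text were chosen after their values were seen, as were single-read models. Members and lists were chosen with earlier results of these data known. A gene that met the rule for likeness in level is not reported here.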

Additional observations from a re-analysis of the deposited data

Results flagged for a closer look

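Reads opposite to Grb10 were found in data that the comparisons leave out, the models classed as antisense. In replicate 1 there was 1 such read over the Grb10 span and in replicate 2 there were 24, in 5 models, above the 3 counts that a count of 0 allows and above the 7 reads of Grb10 itself. The largest of these models had 16 reads (chr11:11932480-11933094), inside the Grb10 span toward its 3′ end. Antisense models made up 1.74% of all mouse reads in replicate 1 and 5.34% in replicate 2, and over Rian there were 2 and 12 such reads. The use of strand in the counting was not stated in the sources used here, and the origin of these reads was not tested.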

How the results depend on the processing

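Among the values that answer a comparison, 29 of those recomputed kept their side and direction, 9 moved and 2 reversed; among values of single genes, 106 kept theirs, 12 moved, 6 became stronger, 2 became weaker and 3 reversed. The count of members called, 1 of 8 tested, stood beside 43.3% of all genes tested. It became 4 of 8 with TMM scaling and 4 of 8 with DESeq2 scaling, beside 40.9% and 40.7% of all genes. Over annotated transcripts alone it was 2 of 4, beside 51.0%. With a coefficient of variation of 0.2 and of 0.4 it was 0 of 8, beside 15.5% and 0.092% of all genes. The count of other imprinted genes, 8 of 19 tested, became 2 with a coefficient of 0.2 and 0 with 0.4, where the same 15.5% and 0.092% of all genes were called. The difference in the share of H19-202 reversed over all classes (11.3 points) and over annotated transcripts alone (0.92 points). Over annotated transcripts alone the main start of H19 had a mean share of 96.6%, against 82.7% over all, and its introns were spliced in 99.1%, against 97.8%. Log2 ratios that reversed were those of H19 over annotated transcripts alone (0.23) and of Dlk1 over annotated transcripts alone (0.38) and without incomplete and genomic reads (0.13). In both settings the median of all genes had moved as well, to 0.58 and 0.40, and relative to it neither gene changed sign (H19 -0.35, Dlk1 -0.20 and -0.27). The other causes were not tested. Leaving out either library gave a summed level between 690 and 753 CPM. No paired analysis was possible because there is 1 group only. Members with 16 reads or fewer limit any statement on their isoforms.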
